A study of Mus musculus with 2 samples.

Results

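The 9 genes described here encode transcription factors and LIM-only coactivators that act in the haploid phase of sperm formation: Crem with the LIM-only genes Fhl4 and Fhl5, the RFX factors Rfx1, Rfx2 and Rfx3, the SOX factors Sox5 and Sox30, and the orphan nuclear receptor Nr6a1. They were chosen by gene symbol, and all 9 were found among the 23234 genes of the deposited table. The RNA came from round spermatids of C57BL/6 mice, the postmeiotic cells that have not yet begun to elongate. One library was made from wild-type mice and one, labelled Epc-dKO, from mice lacking both Epc1 and Epc2, whose products belong to the histone acetyltransferase complex NuA4/TIP60. The age of the animals, how the genes were removed, in which cells, and whether animals were pooled were not stated in the labels. Levels are FPKM, a fragment count corrected for transcript length and library size, so levels of different genes can be set side by side. Each genotype has 1 library, so no difference could be set against a spread between animals, and no p-value was computed.

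CREM binds cAMP response elements and switches on many postmeiotic genes; in spermatids it is assisted by FHL5, also called ACT, a coactivator built of LIM domains. RFX factors bind X-boxes in the promoters of cilium genes, and RFX2 is required for round spermatids to grow a flagellum. SOX30 is needed for the development of round spermatids, and SOX5 is made in the testis mainly as a short isoform. NR6A1, also called GCNF, is a nuclear receptor of germ cells that binds direct repeats of AGGTCA.

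The promoters of the RFX genes are shown first because the X-box is the letter pattern that RFX proteins bind. Windows of 300 bases, from 250 before to 50 after the annotated start, were taken from RefSeq on build GRCm38.p6. Of the 9 genes 8 had an entry, with 10 windows in all; Crem had none. The X-box arm GTTGCC was searched on both strands and was found in the windows of Rfx1, Rfx2, Rfx3 and Sox5, against 12.5% of all 32851 windows. In Rfx1, Rfx2 and Rfx3 the arm was part of a longer common stretch, AACNGTTGCC, in which N is any base. It is shown in capitals in 30 bases around it, each 5′ to 3′ on the strand of the gene.
Rfx1 chr8:84066823-84066852 (+ strand): ggtgggtagcAACAGTTGCCccggtgaggg
Rfx2 chr17:56831109-56831138 (- strand): gcagcttggtAACCGTTGCCgggcgcaacg
Rfx3 chr19:28011120-28011149 (- strand): gagttatagcAACCGTTGCCttgtgaatca
The stretch begins at base -3 in Rfx1, -120 in Rfx2 and 28 in Rfx3, counted from the annotated start as base 1. It was in 44 of the 32851 windows (0.134%). It was put together after these 3 sequences were read, so that share is a description and not a test. A match of letters is not a measured binding site.

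The upstream 250 bases of Rfx2, the most abundant RFX gene in both libraries, are given with the same stretch in capitals, and those of Rfx1, the next most abundant, with the CRE core TGACG in capitals.
Rfx2 chr17:56831009-56831258 (- strand): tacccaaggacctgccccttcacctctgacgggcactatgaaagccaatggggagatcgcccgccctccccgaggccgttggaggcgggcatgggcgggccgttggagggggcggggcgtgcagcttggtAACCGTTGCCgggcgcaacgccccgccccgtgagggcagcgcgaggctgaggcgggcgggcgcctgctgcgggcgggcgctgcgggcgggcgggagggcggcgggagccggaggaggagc
Rfx1 chr8:84066586-84066835 (+ strand): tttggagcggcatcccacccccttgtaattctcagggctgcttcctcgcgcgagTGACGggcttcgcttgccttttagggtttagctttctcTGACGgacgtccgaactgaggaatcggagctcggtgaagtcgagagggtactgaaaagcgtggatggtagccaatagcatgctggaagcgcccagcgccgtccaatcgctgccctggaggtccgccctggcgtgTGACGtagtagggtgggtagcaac
TGACG is the core of the palindromic cAMP response element TGACGTCA, so every full element also holds the core on both strands. The Rfx1 window held 3 cores, at bases -196, -158 and -24, and the Rfx2 window held 1, at -224. The core was in 20.8% of all windows. Of the 8 genes with a window, only Nr6a1 held the full element, which was in 1.79% of all windows. It lies at base 36 of the upstream of its 2 windows. The SOX core ACAATG was found in Sox5 alone (12.6% of all windows). Both are shown with the match in capitals.
Nr6a1 chr2:38926412-38926441 (- strand): cgtggcagcggcgcgTGACGTCAgaggagg
Sox5 chr6:143947243-143947272 (- strand): gactgaagagacACAATGgttgtgaatact
The other Nr6a1 window held the NR6A1 core AAGGTCA on the opposite strand at base -91 (4.72% of all windows). None of these 5 patterns was present in the windows of Fhl4, Fhl5 or Sox30, which says only that these letters are absent there. A further X-box arm, GTTACC, added after the sequences were read, was found on the opposite strand in Fhl5 at base 22 and in Rfx2 at base -123, where it overlaps the common stretch (7.21% of all windows). The map of motif matches sets the positions side by side.

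**Figure D1:**
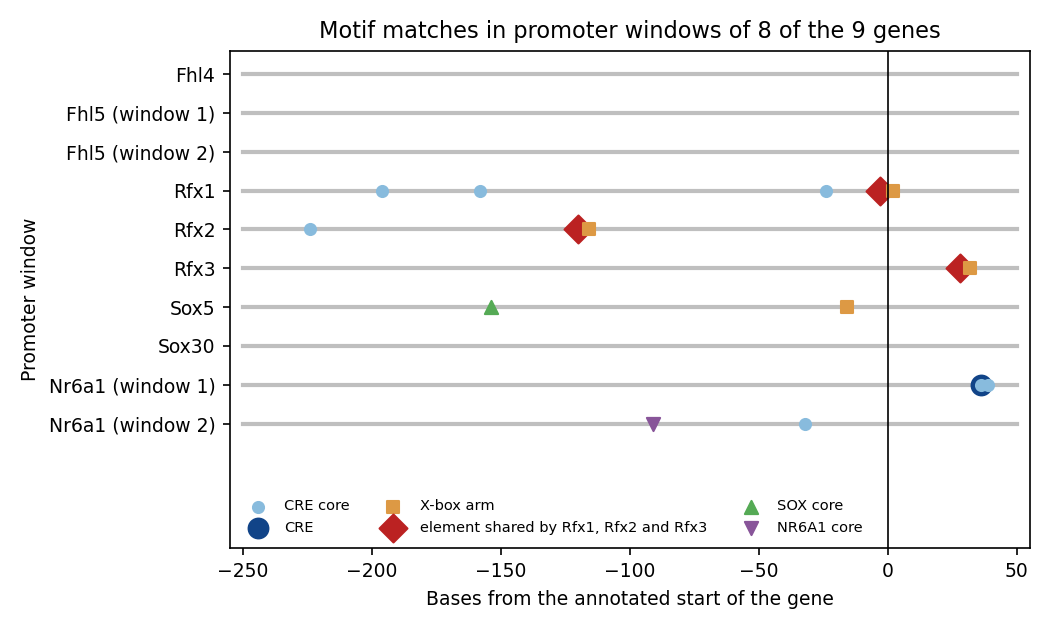
Motif matches in the 10 promoter windows of 8 genes; the x axis is distance in bases from the annotated start, grey lines are the windows, and each symbol marks the first base of a match on either strand. The element common to Rfx1, Rfx2 and Rfx3 sits at bases -3, -120 and 28, and the full CRE of Nr6a1 at base 36.

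As for the libraries as a whole, FPKM summed to 193611 in wild type and 198081 in the Epc-dKO-labelled library, and the read depth is unknown. Epc1 had FPKM values of 11.4 and 13.6, and Epc2 of 7.12 and 10.5, so neither was lower in the Epc-dKO-labelled library. The values are per gene and exon-level values were not used here, so they do not check the label, which is used as given. Differences are log2 ratios of (FPKM + 1), Epc-dKO over wild type, and the words rose and fell are kept for genes past 2-fold on that scale. Over the 10438 genes whose mean FPKM was at least 1, called expressed below, the median log2 ratio was -0.05. The labelled cell type was checked against marker lists. Late spermatid markers were expressed for 16 of 17 measured, and so were 20 of 22 spermatocyte markers, with a summed FPKM of 490 in wild type and 469 in the other library, 1 that fell, 0 that rose and a median of -0.07. Sertoli markers were expressed for 3 of 17 (median -0.63, 0 past 2-fold). These were Clu, with FPKM values of 8.29 and 5.03, Vim, with 1.92 and 0.659, and Amhr2, with 1.56 and 1.39. The defining genes Fshr, Amh and Wt1 were at 0.327 or less. Leydig and peritubular markers were expressed for 12 of 17, of which 1 rose and 1 fell. The median was -0.23. It was 0.16 at a mean FPKM of 5 or more, where only Cyp17a1, Insl3 and Actg2 were left. The summed FPKM of the 17 was 62.7 and 68.9, and 47.4 and 32.8 without Actg2 (15.3 and 36.2), a comparison chosen after seeing the data. Blood, immune and endothelial markers were expressed for 1 of 13 (Vwf, -0.12), with Ptprc at 0.128 or less and the globin genes Hbb-b1 and Hba-a1 listed at 0 in both.

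All 9 genes were expressed, and none passed 2-fold in either direction. Among all expressed genes 2.75% rose and 1.88% fell, so a count of 0 of 9 is close to that background. The log2 ratios ran from -0.35 for Fhl4 to 0.89 for Rfx3, with 5 above 0 and 4 below and a median of 0.08. At a lower bar of 1.5-fold, 3 of the 9 genes were higher, Rfx3, Crem and Fhl5, and 0 were lower; that bar was passed by 8.02% of expressed genes upward and 10.8% downward. Those 3 were also the 3 least abundant of the 9 in the wild-type library. The wild-type level is the denominator of the ratio, so a low level there and a high ratio are not independent. In the Epc-dKO-labelled library Crem, at 24.5, stood above Sox5, at 15.0.

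**Figure D2:**
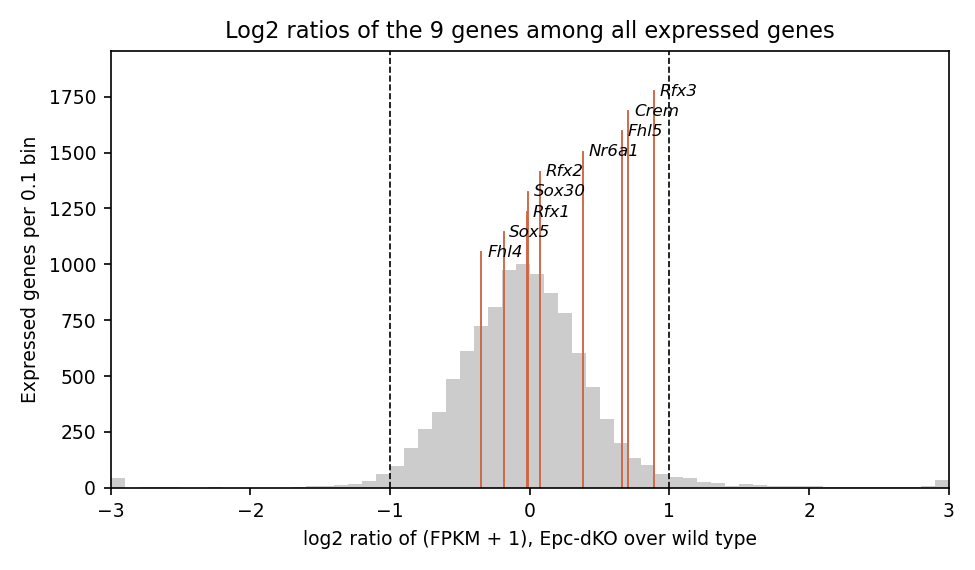
Log2 ratio of (FPKM + 1), Epc-dKO over wild type, for all 10438 expressed genes (grey histogram; the outermost bins also hold values beyond 3) with the 9 genes as vertical lines of arbitrary height; dashed lines mark 2-fold. All 9 lie between the dashed lines, with Rfx3 nearest at 0.89.

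The levels of the 9 genes spanned 119-fold in wild type and 44.2-fold in the Epc-dKO-labelled library. The order from highest to lowest in the wild-type library was Fhl4, Rfx2, Sox30, Rfx1, Nr6a1, Sox5, Crem, Fhl5, Rfx3. In the Epc-dKO-labelled library it was the same except that Crem stood above Sox5. With no replicates the spread is unknown, so it cannot be said which neighbours in this order differ.

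**Figure D3:**
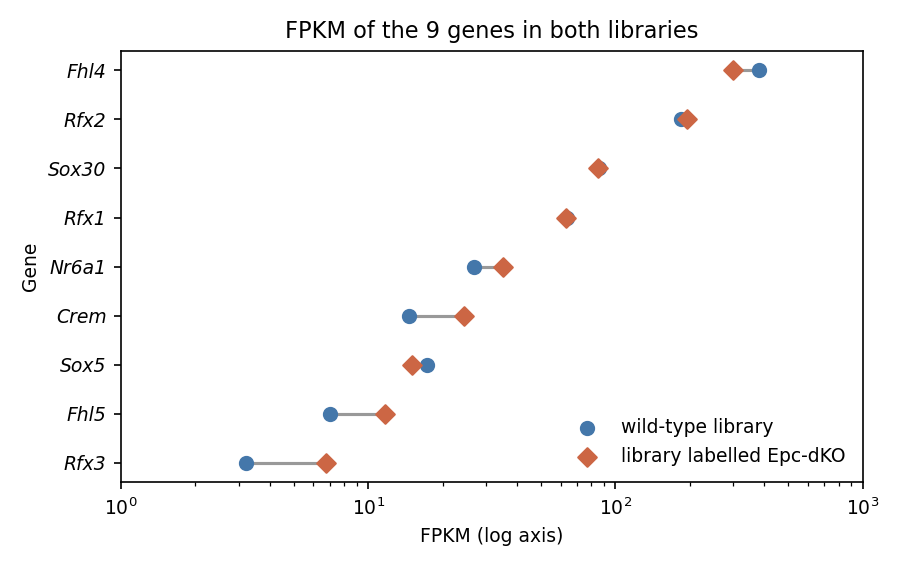
FPKM on a log axis of each of the 9 genes in the wild-type library (circles) and the Epc-dKO-labelled library (diamonds), 1 library each, joined by a line. Rfx1 and Sox30 overlap almost completely, while Crem, Fhl5 and Rfx3 lie to the right in the Epc-dKO-labelled library.

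Crem had FPKM values of 14.6 in wild type and 24.5 in the Epc-dKO-labelled library. The log2 ratio was 0.71, and 94.5% of expressed genes had a lower one. The gene yields activators and, from an internal promoter, the short repressor ICER; GENCODE M21 lists 39 transcripts for it, and a gene-level FPKM does not separate them. Of its 50-base words 5.72% occur on the opposite strand in Gm6225, a gene with values of 0.992 and 0.80, and the strand setting of the counting is not given.

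Fhl5, the coactivator, was lower than Crem in level and had a similar difference. Its FPKM stood at 7.01 in wild type and 11.7 in the Epc-dKO-labelled library, a log2 ratio of 0.66. Fhl5 stood at 0.478 of the Crem level in wild type and at 0.475 in the other, so the FPKM ratio of coactivator to factor was nearly the same in both. Each is a single pair of values.

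Fhl4, a testis LIM-only relative of Fhl5, was by far the most abundant of the 9 genes. Its FPKM stood at 381 in wild type and 299.6 in the Epc-dKO-labelled library, above 99.7% and 99.5% of expressed genes. The log2 ratio was -0.35. Fhl4 made up 97.6% and 95.9% of the summed FPKM of Fhl1 to Fhl5, and Fhl5 made up 1.80% and 3.73%. The Fhl4 level was 54.4 times that of Fhl5 in wild type and 25.7 times in the Epc-dKO-labelled library. Fhl1, Fhl2 and Fhl3, which are known from muscle and heart, had mean FPKM values of 0.910, 0.178 and 0.495. No 50-base word of the annotated Fhl4 and Fhl5 transcripts occurs in a transcript of another gene, so reads of that length or longer can be told apart.

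Rfx2, the main RFX factor of spermatids, was the second most abundant of the 9. Its FPKM stood at 184 in wild type and 194.5 in the Epc-dKO-labelled library, a log2 ratio of 0.08. Rfx1, a ubiquitous RFX factor, had 63.9 and 63.2, a log2 ratio of -0.02. Both differences lay inside the central quartiles of all expressed genes, -0.34 to 0.24. Under rescaling of the libraries to a median ratio of 1 the Rfx1 value was 0.04, so its sign has no direction.

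Rfx3, a factor of motile and nodal cilia, had the largest log2 ratio of the 9 and the lowest level. Its FPKM stood at 3.19 in wild type and 6.78 in the Epc-dKO-labelled library, a linear ratio of 2.12. On the log2 scale with a pseudocount of 1 the ratio was 0.89, short of 2-fold and above 96.6% of expressed genes. It passed 2-fold with a pseudocount of 0.1 (1.06) and on the TPM scale (1.01), where 4.15% and 3.6% of genes rose. Rfx3 was 1.27% of the summed FPKM of Rfx1, Rfx2 and Rfx3 in wild type and 2.56% in the Epc-dKO-labelled library, and Rfx2 was 73.3% and 73.5%.

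Among the other RFX genes, Rfx4 and Rfx8 were well expressed and differed little between the libraries. Rfx4 had FPKM values of 43.2 and 42.7 (log2 ratio -0.02), and Rfx8 had 28.6 and 27.8 (-0.04). Rfx5, Rfx6 and Rfx7, of which RFX5 acts on MHC class II genes, had at most 2.49 in either library. Rfx2 made up 56.3% and 57.2% of the summed FPKM of Rfx1 to Rfx8.

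Sox30 was the most abundant SOX gene. Its FPKM stood at 85.9 in wild type and 85.3 in the Epc-dKO-labelled library, a log2 ratio of -0.01 that was 0.04 with the libraries rescaled to a median ratio of 1. Sox5 had 17.2 and 15.0, a log2 ratio of -0.19. Its SoxD relative Sox6 had 13.5 and 11.99 (-0.16). In the summed FPKM of these 3 genes, Sox30 made up 73.6% and 76.0%. Of the 18 other SOX genes listed, Sox6 included, 14 had a mean FPKM below 1, among them Sox9, the Sertoli cell factor, at 0.192 and 0.180. Of the 50-base words of the Sox5 transcripts 8.96% occur on the opposite strand in other genes, chiefly its antisense gene Sox5os1. That is a share of annotated words and not of reads, and the strand setting of the counting is not given. How far the overlap affects the Sox5 value was not measured.

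**Figure D4:**
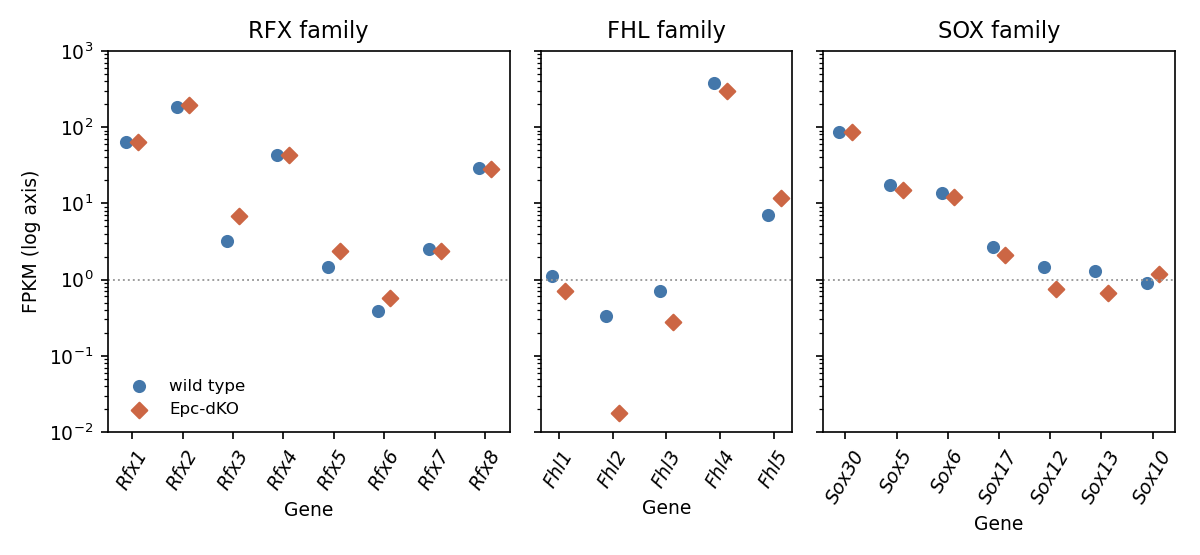
FPKM on a log axis of the 8 RFX genes, the 5 FHL genes and 7 SOX genes in the wild-type library (circles) and the Epc-dKO-labelled library (diamonds), 1 library each; the dotted line marks an FPKM of 1. Rfx2, Fhl4 and Sox30 are the highest genes of their panels in both libraries.

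Nr6a1 had FPKM values of 26.7 in wild type and 35.2 in the Epc-dKO-labelled library, a log2 ratio of 0.38 that lay above 84.2% of expressed genes and within 2-fold. Nr6a1 exceeded each of the 30 other nuclear receptor genes listed in both libraries except Nr4a1, an immediate early receptor, in the wild-type library, where Nr4a1 had 28.8 (19.4 in the other). Nr2c2, encoding the testicular receptor TR4, had 6.97 and 5.88. Of the 18 expressed receptor genes other than Nr6a1, 1 fell and 0 rose, with a median of -0.30. Among all expressed genes 1.88% fell and 2.75% rose. The receptor gene that fell was Esrrb, from 4.26 to 1.06 (-1.35).

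Of the bZIP relatives of Crem, 16 CREB, ATF and JUN genes were expressed, with a median of -0.21. Of these 1 fell and 0 rose, against 1.88% and 2.75% of all expressed genes. The fall was that of Junb, an immediate early gene, from an FPKM of 2.77 to 0.789 (-1.07). The number that fell was 3 with a pseudocount of 0.1, 2 with 0.5 and 4 on the TPM scale, where 6.25%, 3.49% and 6.96% of all expressed genes fell. At a mean FPKM of 5 or more Junb was left out, only Atf1, Atf2, Atf6b and Creb3l4 remained, and the number was 0. Creb3l4, a membrane-bound factor of spermatids, was the most abundant at 61.8 and 54.2, followed by Atf2 at 38.4 and 33.3. Creb1, the somatic counterpart of Crem, had only 1.11 and 1.68, so that the level of Crem was 13.1 and 14.6 times that of Creb1. Crem was 53.5% of the summed FPKM of Crem, Creb1 and Atf1 in wild type and 62.6% in the Epc-dKO-labelled library.

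None of the 13 expressed genes in the list of CREM cofactors, protein kinase and phosphatase subunits and initiation factors passed 2-fold, and the median was 0.08. With a pseudocount of 0.1 there were 2 past 2-fold downward, and 1 on the TPM scale, where 6.25% and 6.96% of all expressed genes fell. In the main setting 2.75% of all expressed genes rose and 1.88% fell. Kif17, a kinesin that moves FHL5 out of the nucleus, had FPKM values of 135 and 134 (log2 ratio -0.01), and Ppp1cc, a phosphatase gene, had 159 and 178. Taf7l, a testis paralog of a TFIID subunit gene, had the largest difference, 20.96 and 10.4 (-0.95). Tbpl1, for the TBP-like factor required in spermatids, had 46.4 and 37.4. In the list of RFX relatives and regulators 0 of 10 expressed genes passed 2-fold (median -0.02): Tcfl5 had 60.8 and 79.6 and Stk36, a cilium kinase, 42.5 and 63.6 (0.57). The list of 22 regulators of late meiosis and spermatids shares Nr2c2, Creb3l4, Tcfl5, Mybl1, Tbpl1, Taf7l and Gtf2a1l with the lists above. Of the 22, 2 fell and 0 rose (median 0.10), against 1.88% and 2.75% of all expressed genes. The falls were Sly, from 7.94 to 2.12, and Esx1, from 23.0 to 8.63; Spz1, a bHLH-zip factor of the testis, had 99.1 and 174.5 (0.81), and Phf7, a histone-binding PHD finger gene, was the most abundant at 309 and 293.

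Of the postmeiotic genes often described as CREM-dependent 7 of 15 expressed rose and 0 fell, with a median of 0.75, against 2.75% of all expressed genes that rose. The largest were Prm2, for protamine 2, from an FPKM of 82.8 to 675 (3.01), and Prm1, from 11.2 to 85.0 (2.82). Hspa1l, a testis HSP70 gene, rose from 28.6 to 87.4 (1.58), and Ace, the angiotensin-converting enzyme gene with a testis isoform, from 49.1 to 119 (1.26). Ldhc, the sperm lactate dehydrogenase, had 466 and 391 (-0.25). Of the 16 listed genes 8 are also among the 18 late spermatid markers, 50% of the one list and 44.4% of the other. Of the 7 that rose, only Ace and Hspa1l are not shared with that list. The other expressed genes not shared, Ldhc, Pgk2, Acr, Papolb and Kif17, lay between -0.25 and 0.17. The late spermatid list itself had 9 of 16 expressed members that rose, 0 that fell and a median of 1.13, with a summed FPKM of 1780 and 3263. The 13 expressed spermatogonial markers had 2 that fell, 0 that rose and a median of -0.75, against 1.88% of all expressed genes that fell. That number was 9 with a pseudocount of 0.1, 6 with 0.5 and 11 on the TPM scale, where 6.25%, 3.49% and 6.96% of all expressed genes fell. More genes pass the minimum on the TPM scale, so the 11 are not out of the same 13. At a mean FPKM of 5 or more only Dazl was left, and the number was 0. The median of the spermatogonial markers ran from -1.09 to -0.62. Their summed FPKM over the 20 listed was 51.1 and 23.9. In bulk RNA, a change in the share of cells of one kind and a change in RNA per cell cannot be told apart. Whether the proportion of later spermatids has a part in the Crem, Fhl5 and Rfx3 values was not tested.

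No cilium or axoneme gene of the kind RFX factors bind passed 2-fold. Of 35 expressed 0 rose and 0 fell, which is close to the 2.75% and 1.88% of all expressed genes. The median of the 35 was 0.16, and 25 lay above 0, where 45.6% of all expressed genes did. Rsph1, a radial spoke gene, had the highest FPKM, 389 and 297. The largest ratios were those of Bbs2, a BBSome gene, with 5.29 and 8.47 (0.59), and Alms1, a basal body gene, with 19.8 and 30.1 (0.58). Of the 29 with a promoter window 20 (69.0%) held the X-box arm GTTGCC, which is present for 14.1% of all 27025 genes with a window. The list was chosen as genes of the kind RFX factors bind, so that share is a description and not a test. The further arm GTTACC, added after the promoter sequences of the 9 genes were read, was present for 9 of the 29 (31.0%), against 8.16% of all genes with a window. The 20 expressed genes with the arm had a median log2 ratio of 0.10 (range -0.33 to 0.57) and the 9 without it 0.19 (-0.38 to 0.59), so the ranges overlapped almost entirely. The CRE core TGACG was present for 4 of 13 CREM-dependent genes with a window (30.8%), Gapdhs, Hspa1l, Kif17 and Ldhc, against 23.0% of all genes with one. Over the other lists its share ran from 10% (Sertoli markers) to 52.9% (CREB and ATF family), and it was 37.9% in the cilium list. The CREM-dependent list thus does not stand out for this core. The SOX core was present for 6 of the 13 CREM-dependent genes (46.2%, against 14.3%), Prm2, Tnp1, Akap4, Hspa1l, Ldhc and Papolb. In the late spermatid list, which shares Prm2, Tnp1 and Akap4, it was present for 33.3%. Of the CREM-dependent genes expressed and with a window, the 4 with TGACG had a median log2 ratio of 0.36 (range -0.25 to 1.58) and the 9 without it 1.26 (-0.03 to 3.01). The 6 with the SOX core had 1.38 (-0.25 to 3.01) and the 7 without it 0.75 (-0.01 to 2.82). In both splits the ranges overlap, and no test was made.

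**Figure D5:**
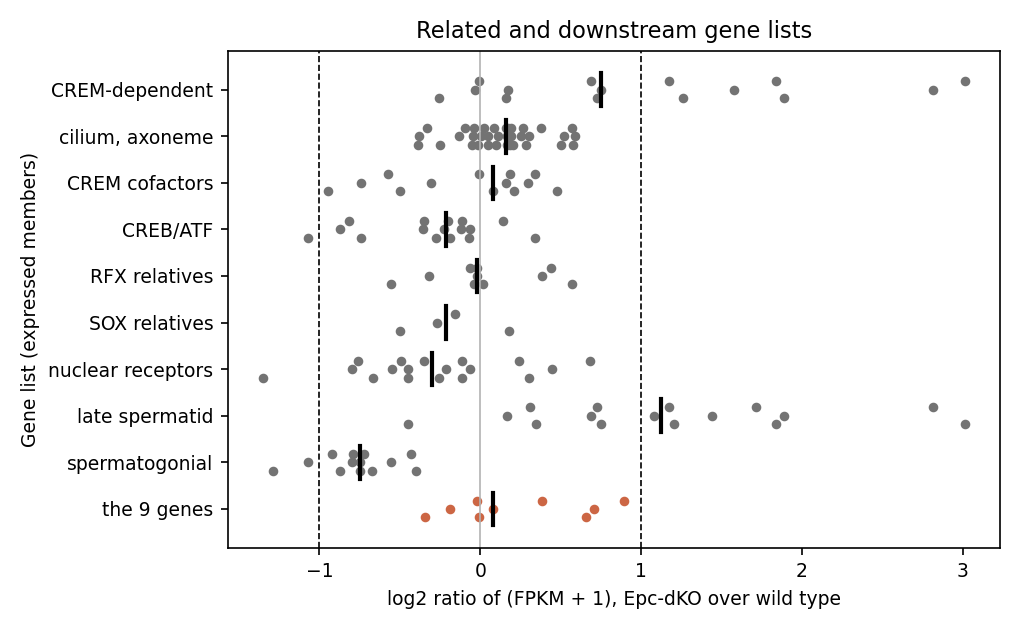
Log2 ratio of (FPKM + 1), Epc-dKO over wild type, of the expressed genes of each list (points, spread vertically for legibility) with the list median (black bar); dashed lines mark 2-fold. The CREM-dependent and late spermatid lists, with medians of 0.75 and 1.13, extend past 2-fold upward, while the 9 genes (orange) and the cilium list stay within it.

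The genes nearest to Crem by distance over the 2 libraries, on the log2(FPKM + 1) scale, were Agbl2, with an FPKM of 15.1 and 25.4 (distance 0.06), Bbs7, with 14.2 and 23.4 (0.08), and Chn2, with 13.9 and 25.5 (0.09). Nearest to Fhl4 were Rsph1 (0.03), Ccdc92, with 365 and 299 (0.06), and Tesk1, with 377 and 314 (0.07). With 2 libraries such nearness is weak: 22 genes lay within a distance of 0.2 of Crem and 8 within that distance of Fhl4.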

How the data were processed

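The authors deposited FPKM for each gene, with 1 column for each library. The submitters' processing notes name Cufflinks 2.2.1 and build mm9; per the labels' protocols, libraries were directional. The strand setting, annotation and aligner were not given in the sources used here. A single row of library codes was left out, leaving 23234 genes. The log2 ratio used a pseudocount of 1, and genes were called expressed at a mean FPKM of at least 1. No test was possible, and the scripts were tested on simulated data. The 9 genes and all gene lists were chosen with earlier results of these data known. Named were the 9 genes, Epc1 and Epc2, the 2 highest and 2 most changed genes of each list, and the 3 nearest to Crem and to Fhl4; other names were chosen after their values were seen. AACNGTTGCC was put together from the promoter sequences, and GTTACC was added after they were read. The other letter patterns were taken from general knowledge of these factors. Promoters came from RefSeq (GRCm38.p6), and 50-base words from GENCODE M21 transcripts; no coordinate was converted. Alternatives were other pseudocounts, minima, rescalings and fold rules. Python 3.11.15, NumPy 2.4.6, pandas 2.3.3 and Matplotlib 3.10.9 were used.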

Additional observations from a re-analysis of the deposited data

How the results depend on the processing

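Of 89 log2 ratios of the 9 genes over the alternative settings, 84 kept their side of the fold rule and 87 their sign. The 2 changes of sign were Rfx1 and Sox30 under the median rescaling. A change of the minimum or of the fold rule leaves the ratio itself as it was, and a pseudocount cannot change its sign. Only the rescalings could do so, and the 87 is therefore no measure of stability. The number of the 9 genes at least 2-fold higher went from 0 to 1 with a pseudocount of 0.1 and to 1 on the TPM scale, both times Rfx3, since the pseudocount then weighs less, and 3 genes passed a 1.5-fold rule. The number lower was 0 in every alternative run. Their median ran from 0.03 to 0.13. With a minimum mean FPKM of 5, Rfx3 was left out. Rescaling moved the median of all expressed genes by -0.08 to 0.04. Over all expressed genes 287 rose and 196 fell (59.4% upward), against 433 and 652 with a pseudocount of 0.1, 346 and 364 with 0.5, 545 and 1054 on the TPM scale, 166 and 105 at a mean FPKM of 5 or more, 837 and 1127 at 1.5-fold and 76 and 59 at 4-fold. Over the settings other than the 4-fold rule the median of the CREM-dependent list ran from 0.70 to 0.80 and that of the cilium list from 0.12 to 0.21. The median of the cofactor list ran from -0.19 to 0.18 and that of the RFX relatives from -0.06 to 0.03, so neither has a direction. The number of nuclear receptor genes that fell went from 1 to 2 with a pseudocount of 0.1 and 4 on the TPM scale. That of spermatocyte markers went from 1 to 3 under both. Of all expressed genes 6.25% and 6.96% fell in these 2 settings, against 1.88% in the main one. Sertoli markers went from 0 lower to 1 with a pseudocount of 0.1 and 2 on the TPM scale, Leydig and peritubular markers from 1 to 2 and 3, and SOX relatives from 0 to 1 higher and 1 lower on the TPM scale. The Leydig and peritubular median ran from -0.58 to 0.16, the latter with only Cyp17a1, Insl3 and Actg2 left. No paired analysis was possible because there is only 1 library a genotype. Depth is unknown, which limits what can be said of low genes such as Rfx3.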

Other observations

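The stretch AACNGTTGCC seen in the promoters of Rfx1, Rfx2 and Rfx3 was present for 43 of 27025 genes with a promoter window, 27 of them in the expression table. Besides the 3 RFX genes, 14 of 24 were expressed, with a median FPKM of 9.73 in wild type and 8.80 in the Epc-dKO-labelled library, a median log2 ratio of -0.06, 0 that rose and 0 that fell. The most abundant was Asrgl1, an asparaginase-like gene, with 234.5 and 215.5. Ttll10, for a tubulin polyglycylase, had 76.1 and 144 (log2 ratio 0.91), and Iqcf1, an IQ motif gene of the sperm, had 4.83 and 10.5 (0.98). In the other direction Pold2, for a subunit of DNA polymerase delta, had 13.8 and 7.09 (-0.87), Nat14 had a log2 ratio of -0.71 and Pin4 of -0.56. Of the 14 expressed genes 6 lay above 0. Among all expressed genes 2.75% rose and 1.88% fell. The element was found by reading the RFX promoters, and these genes were named after their values were seen. None of the other lists' windows held it.

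The promoter windows of the 8 genes that had one were of different composition. GC content was 77.7% for Fhl4, 75.7% for Rfx2, 70.0% for Sox30, 68.0% for Rfx3 and 60.3% for Rfx1, and it was 39.3% to 42.7% for the 5 windows of Fhl5, Sox5 and Nr6a1, where the median of all windows was 52.7%. Of the 4 most abundant genes, Fhl4, Rfx2, Sox30 and Rfx1, all had windows above that median, and Rfx3, the least abundant, had one as well.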
